A study of Drosophila melanogaster with 20 samples.

Results

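In the heads of adult Drosophila melanogaster, 149 of 15473 measured transcripts were lower in flies homozygous for ATM8 than in heterozygotes while staying near their control level when ATM was silenced by RNA interference. ATM is a protein kinase that is activated at DNA breaks and signals to cell cycle checkpoints and repair, and ATM8 is a temperature-sensitive allele of its fly gene. Loss of ATM in humans causes ataxia-telangiectasia, a disease in which neurons are lost. The study asked how lowered ATM function alters expression in the head, and whether glia or neurons are the cells concerned. In an RNA interference fly, a GAL4 driver switches on a hairpin RNA against ATM in the cells where that driver is active.

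The members were chosen by differences of group mean levels, on the log2 scale of RMA, a method that corrects background, normalizes arrays and summarizes probes. A member had a difference of at most -0.7 between ATM8 and ATM8/+, had both ATM8 arrays below both ATM8/+ arrays, and had a difference between -0.5 and 0.5 in each of the 3 RNA interference comparisons. These values are therefore a description of the set, and no test of them is given as support. The difference reached -0.7 in 276 transcripts, array order held in 267 of them, and 118 of those were left out because at least 1 RNA interference difference lay outside the window. A mirrored rule for higher levels would take 158 transcripts.

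The ATM8 flies were ATM8/ATM8 homozygotes (2 arrays) and the ATM8/+ flies heterozygotes (2 arrays), both in the pp e1 genetic background, reared at 18 °C and then held for 3 days at 25 °C. The alleles pp and e1 are recessive marker mutations of eye and body colour. All other flies were w1118, which carries an eye colour mutation, and were kept at 25 °C throughout, with a labelled age of 4 to 6 days. Repo-ATMi flies had Repo-GAL4, active in glia, with UAS-RNAiATM (2 arrays), and Repo-GAL4 flies had the driver alone (2 arrays). ElavC155-ATMi flies had the ElavC155-GAL4 driver, active in neurons, with UAS-RNAiATM (2 arrays), and ElavC155-GAL4 flies the driver alone (2 arrays). Elav-ATMi flies had an Elav-GAL4 driver inserted on another chromosome, also neuronal, with UAS-RNAiATM (4 arrays), and Elav-GAL4 flies that driver alone (4 arrays). Collection took place from 0 to 3 days after eclosion in every genotype. An allele linked to ATM8 is homozygous together with it, so its part in the set cannot be told apart from that of ATM8. The hairpin transgene likewise goes together with the silencing.

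The rows of the deposited table are FlyBase transcript identifiers without gene names. Of the 149 members, 0 could be paired with a gene in the gene table used here (44 of all rows were matched, 17 to exactly 1 gene), so the members' functions are not described and no sequence is shown. With so few rows matched, neither the level of ATM itself nor head, neuron or glia markers were checked. The arrays fell into 2 sets by their median level, from 10.45 to 10.63 on the 8 ATM8 and Repo arrays and from 10.84 to 10.93 on the 12 ElavC155 and Elav arrays. Levels are compared only within a set. In whole heads, fewer cells of a type and less RNA per cell cannot be told apart.

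Most members were lower by a modest amount, and a few by a large one. The median difference between ATM8 and ATM8/+ was -0.83 on the log2 scale, a 1.77-fold lower level, and the members ran from -4.39 to -0.70. In 7 members the difference was -2.20 or beyond, at least 4.60-fold. A further 7 lay between -1.90 and -1.43. The next member was at -1.13, and 120 members lay above -1. The members just inside the limit were at -0.7012, -0.7016 and -0.7018, and the nearest transcripts outside it at -0.6998, -0.6979 and -0.6959. The gap between the lower ATM8/+ array and the higher ATM8 array had a median of 0.55, and in 11 members it was under 0.2, so that for these the array order rested on a small margin.

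**Figure D1:**
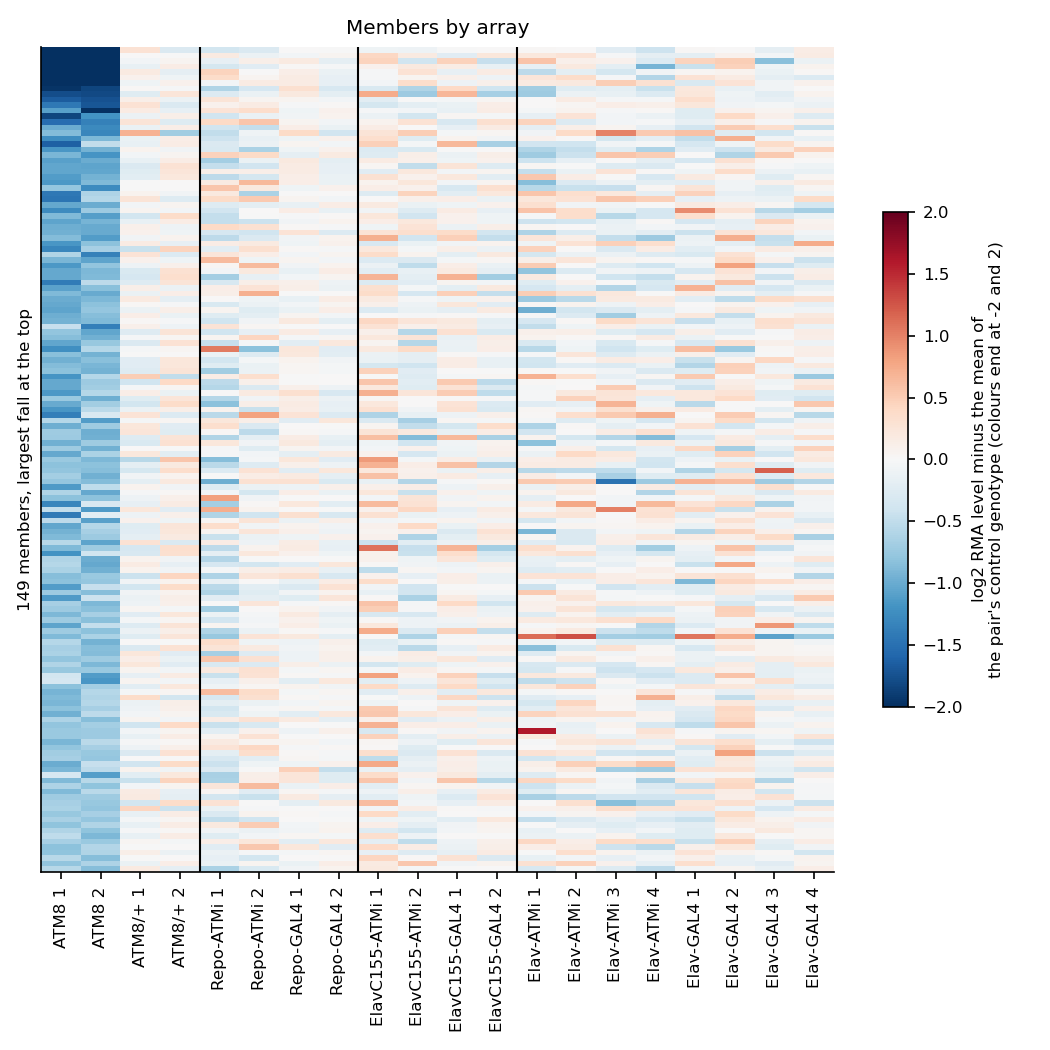
Each row is 1 of the 149 members, sorted by the difference between ATM8 and ATM8/+ with the largest fall at the top, and each column is an array. Colour gives the log2 RMA level minus the mean of the control genotype of the same pair, and it ends at -2 and 2. Both ATM8 columns are blue in every row, as the rule requires, while the other columns hold scattered rows of either colour.

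In limma, a linear model fitted over all transcripts, 43 of the 149 members were lower in ATM8 than in ATM8/+ at an adjusted p under 0.05. Over all transcripts the share called lower was 0.64%. Since that contrast chose the members, nothing is read from this count. Leaving out any 1 of the 4 arrays gave 19 to 22 such members, and fitting those 4 arrays alone gave 14.

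Members were found at all brightness levels, more often among dim transcripts. When all transcripts were split into 4 equal classes by their mean over the 20 arrays, 53 members lay in the dimmest class, 51 in the next, 30 in the third and 15 in the brightest. The median difference between ATM8 and ATM8/+ was -0.83 in the dimmest class and -0.79 in the brightest. Group means of members spanned 5.44 to 13.07 in ATM8 and 6.17 to 14.11 in ATM8/+. The lowest value of any transcript on the ATM8 and Repo arrays was 4.71.

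FBtr0082765 had the largest difference. Its levels were 10.14 and 8.23 in ATM8, against 13.86 and 13.28 in ATM8/+. In the same array set, Repo-ATMi flies had 14.44 and 14.51 and Repo-GAL4 flies 14.81 and 14.80. The ATM8/+ arrays therefore lay between the ATM8 and the Repo arrays, with no overlap on either side. Its median rank among all transcripts of an array was the 36.7th percentile in ATM8, against the 90.8th in ATM8/+.

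FBtr0082375 was next. It had 9.09 and 8.29 in ATM8, against 12.16 and 12.15 in ATM8/+, a difference of -3.47. Repo-ATMi flies had 13.92 and 13.63, and Repo-GAL4 flies 13.69 and 13.79. Here too the ATM8/+ arrays lay above both ATM8 arrays, as the rule requires, and below all 4 Repo arrays. The Repo flies also differ in genetic background, rearing temperature and driver, so this order is not a measure of allele dose. On the 12 ElavC155 and Elav arrays the transcript stayed between 14.19 and 14.84.

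**Figure D2:**
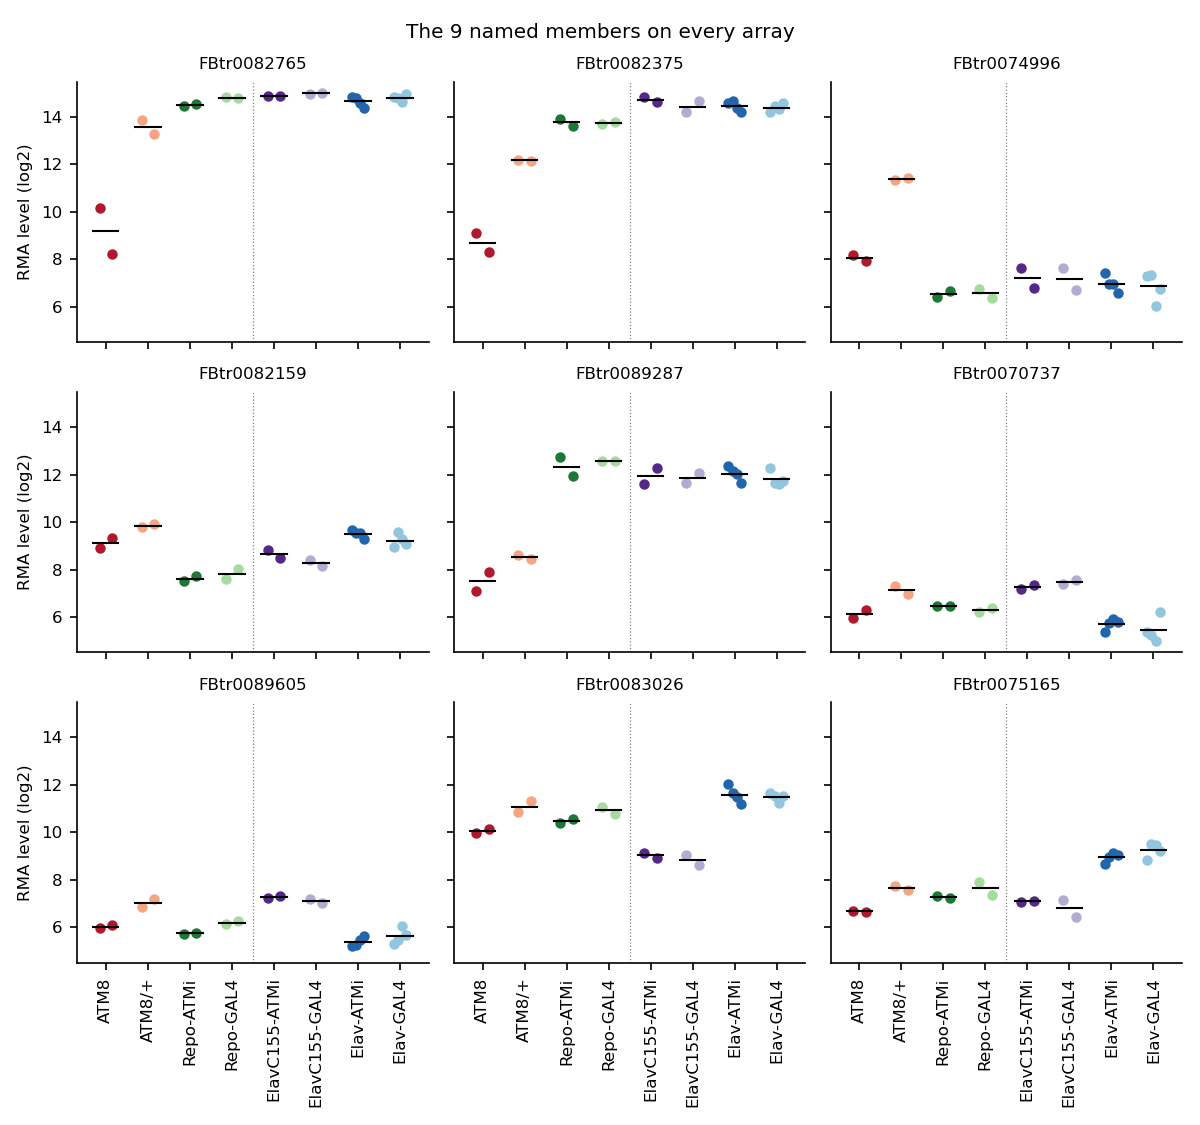
Each panel shows the log2 RMA level of 1 named member on all 20 arrays. Points are arrays, short lines are genotype means, and a dotted line separates the 8 ATM8 and Repo arrays from the 12 ElavC155 and Elav arrays, whose levels are not compared across it. FBtr0074996 is highest in ATM8/+ (11.32 and 11.42), whereas FBtr0089287 is low in both ATM8 and ATM8/+.

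The same fall between homozygote and heterozygote could start from different levels. The Repo flies, the other genotypes of that array set, were used as a yardstick, and the ATM8 arrays that chose the members enter these counts, so they are a description. Repo flies differ from the ATM8 strain in genetic background, rearing temperature and driver, so their level is not a normal level for that strain. In 98 of 149 members (65.8%) both ATM8 arrays lay below all 4 Repo arrays, against 22.2% of all transcripts. In 51 members (34.2%) both ATM8/+ arrays lay above all 4 Repo arrays, against 23.9% of all transcripts. The ATM8/+ mean was nearer to the Repo level than the ATM8 mean in 98 members (65.8%), against 58.4% of all transcripts.

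Taken by array order, the largest class held 68 members in which ATM8 lay below all 4 Repo arrays and ATM8/+ overlapped them (7.61% of all transcripts have that order). Their median distance from the Repo level was -0.77 in ATM8, against 0.07 in ATM8/+. In 33 members the order was the other way round: ATM8/+ lay above all 4 Repo arrays and ATM8 overlapped them (6.39% of all transcripts). There the median distance was -0.05 in ATM8, against 0.81 in ATM8/+. These medians describe the classes and support nothing beyond their definition.

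Both ATM8/+ arrays lay below all 4 Repo arrays in 23 members (20.2% of all transcripts). In these 23 the ATM8 arrays were below them too by the rule, which puts ATM8 below ATM8/+, with median distances of -1.81 in ATM8 and -0.76 in ATM8/+. The share of all transcripts with both genotypes below was 14.4%. Both ATM8 arrays lay above all 4 Repo arrays in 11 members (27.3% of all transcripts). In these 11 the ATM8/+ arrays were above them too, again by the rule (17.4% of all transcripts), at 0.61 in ATM8 and 1.42 in ATM8/+. A further 7 members had ATM8 below and ATM8/+ above the Repo arrays, which 0.181% of all transcripts had, and 7 overlapped the Repo arrays in both genotypes, against 38.6% of all transcripts. The 7 largest differences were spread over these classes: 3 had both genotypes below the Repo arrays, 2 had only ATM8/+ above them, 1 had both above and 1 had ATM8 below and ATM8/+ above.

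**Figure D3:**
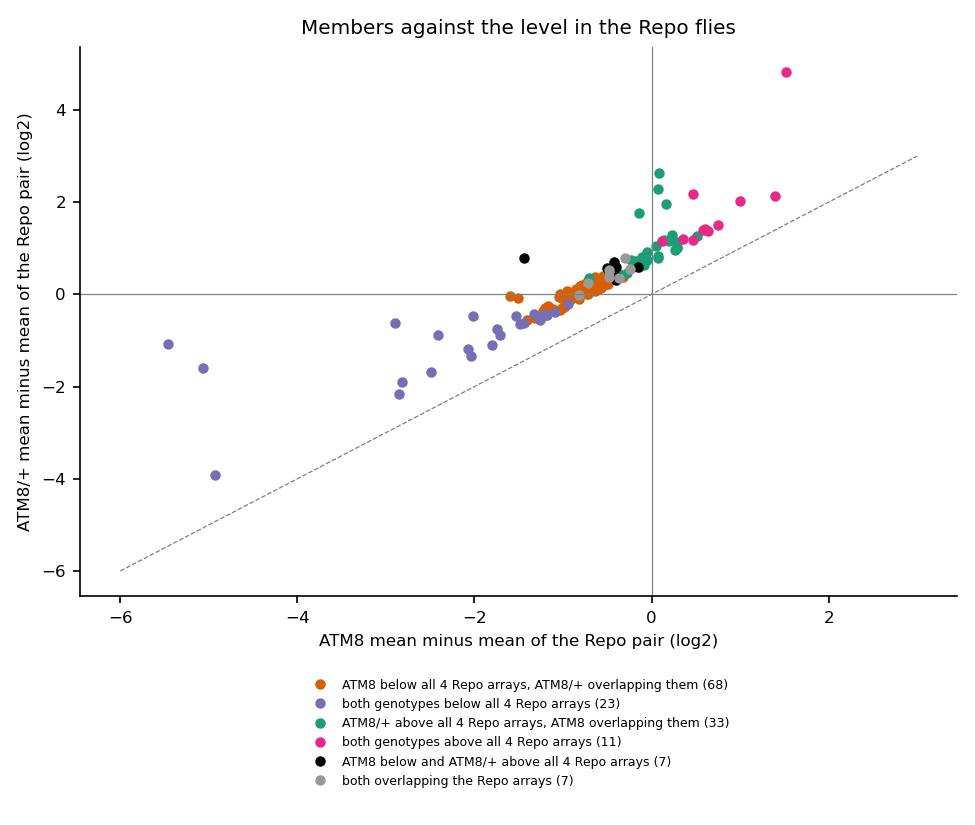
Each point is a member, with the distance of its ATM8 mean from the mean of the Repo pair on the horizontal axis and that of its ATM8/+ mean on the vertical axis (log2). Points lie above the dashed line of equality by the rule, and colours give the order of the arrays. The largest class, with ATM8 below the Repo arrays and ATM8/+ overlapping them, holds 68 members.

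The levels of the members were also compared between strains. The mean of ATM8 and ATM8/+ (the ATM8 pair) was set against the mean of Repo-ATMi and Repo-GAL4 (the Repo pair). The ATM8 and ATM8/+ arrays that chose the members enter this difference, and a member low in ATM8 with ATM8/+ at the Repo level is lower in the pair mean for that reason alone. The values are therefore a description, and nothing is read from the counts. The contrast holds genetic background, rearing temperature and driver together, and their parts cannot be told apart. At a limma adjusted p under 0.05, 47 of 149 members were lower in the ATM8 pair (31.5%, against 18.0% of all transcripts) and 27 were higher (18.1%, against 22.4% of all transcripts). The other 75 did not pass. In either direction 49.7% of members passed, against 40.4% of all transcripts. The median difference over the members was -0.24, beside 0.03 over all transcripts, and 98 members were below 0. The lower members had a median difference of -0.81 and 17 of them were at least 2-fold lower, and the higher members had a median of 0.81 with 10 at least 2-fold higher.

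FBtr0089287 was the member with the largest difference in this contrast. It had 7.11 and 7.92 in ATM8 and 8.59 and 8.46 in ATM8/+, against 12.75 and 11.92 in Repo-ATMi and 12.55 and 12.56 in Repo-GAL4. The ATM8 pair minus the Repo pair was -4.43 on the log2 scale, a 21.5-fold lower level. The pairs did not overlap, and the difference between them was larger than the difference of -1.02 between ATM8 and ATM8/+ that made it a member. FBtr0082375, described above, had a difference of -3.33, with both genotypes below the Repo flies.

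FBtr0074996 was higher in the ATM8 pair. It had 8.19 and 7.93 in ATM8 and 11.32 and 11.42 in ATM8/+, against 6.39 and 6.68 in Repo-ATMi and 6.74 and 6.38 in Repo-GAL4. The difference was 3.17 on the log2 scale. In this member the heterozygotes stood farthest from the Repo flies and the homozygotes were nearer. FBtr0082159 had 8.89 and 9.33 in ATM8 and 9.79 and 9.91 in ATM8/+, against 7.51 and 7.73 in Repo-ATMi and 7.61 and 8.01 in Repo-GAL4. Its difference was 1.77, with no overlap between the pairs.

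The neuronal driver lines gave a test on arrays that did not choose the fall in ATM8; the rule only bounded the differences within each driver line. The mean of ElavC155-ATMi and ElavC155-GAL4 (the ElavC155 pair) was set against the mean of Elav-ATMi and Elav-GAL4 (the Elav pair). All these flies were w1118 kept at 25 °C, and they differ by the labels in the driver insertion. Any other difference between the lines or in the handling of their arrays goes together with the insertion, and their parts cannot be told apart. In limma, 51 members were lower in the ElavC155 pair (34.2%, against 19.6% of all transcripts) and 27 were higher (18.1%, against 18.2% of all transcripts), while 71 did not pass. With the dimmest 25% of transcripts left out, 44 of the 96 members tested were lower (45.8%, against 23.3% of all transcripts tested) and 13 higher (13.5%, against 18.5%). In either direction 52.3% of members passed, against 37.8% of all transcripts. The shares of all transcripts were not matched to the members for brightness or for spread between replicates. Members were more often dim and had a higher median SD, and the part of this in the shares was not tested. The median difference was -0.09, beside -0.01 over all transcripts. All 4 ElavC155 arrays lay below all 8 Elav arrays in 29 members (19.5%, against 10.9% of all transcripts) and above them in 18 (12.1%, against 10.8%). At least a 2-fold difference was found for 18 of the lower and 5 of the higher members. The share of all transcripts past that size was not computed, so nothing is read from these counts.

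FBtr0083026 had the most negative difference between the ElavC155 and Elav pairs among the members. It had 9.14 and 8.92 in ElavC155-ATMi and 9.03 and 8.62 in ElavC155-GAL4, against 12.03, 11.64, 11.49 and 11.18 in Elav-ATMi and 11.67, 11.53, 11.25 and 11.53 in Elav-GAL4. The difference was -2.61 ± 0.14 (SE, limma adjusted p = 4.1e-09), and the pairs did not overlap. FBtr0075165 ran from 6.43 to 7.16 over the ElavC155 pair, against 8.65 to 9.53 over the Elav pair, a difference of -2.16 ± 0.15 (limma adjusted p = 8.8e-08).

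FBtr0070737 had the largest positive difference among the members, running from 7.17 to 7.56 in the ElavC155 pair against 5.01 to 6.20 over the Elav pair. Its difference was 1.79 ± 0.17 (limma adjusted p = 2.1e-06). FBtr0089605 ran from 7.02 to 7.31 in the ElavC155 pair, against 5.22 to 6.08 in the Elav pair, a difference of 1.67 ± 0.13 (limma adjusted p = 1.7e-07). Neither transcript overlapped between the pairs, and both were dim in the Elav pair, at percentiles 9.16 and 8.33 of their arrays.

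**Figure D4:**
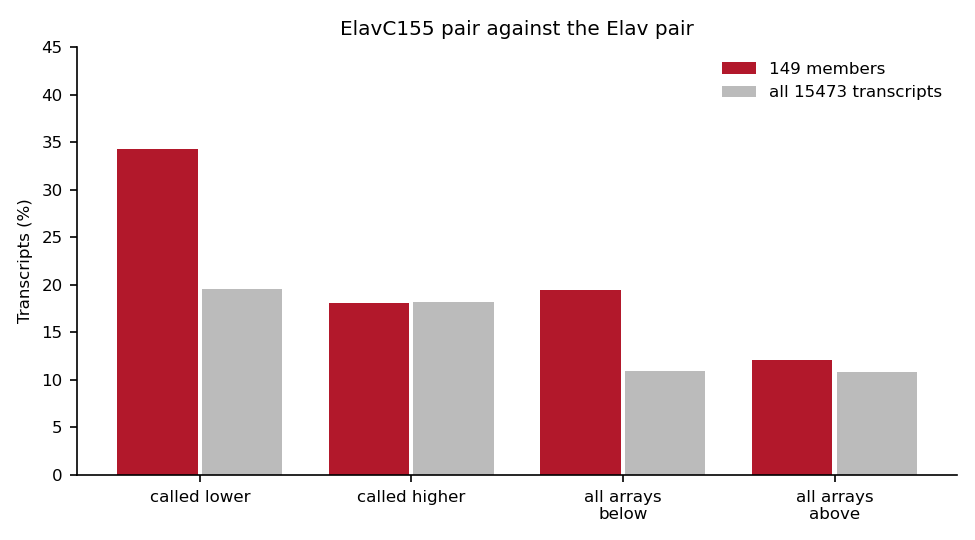
Bars give the percentage of transcripts that were lower or higher in the ElavC155 pair than in the Elav pair at a limma adjusted p under 0.05, and the percentage whose ElavC155 arrays all lay below or all above the Elav arrays. Red is the 149 members and grey all 15473 transcripts. Members were called lower in 34.2% of cases, against 19.6% of all transcripts, and higher in 18.1%, against 18.2%.

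On some arrays the members shifted together away from their genotype mean, and on others they did not. Replicate 2 of Repo-ATMi lay above its genotype mean for 107 of 149 members (71.8%), against 47.9% of all transcripts. So did replicate 2 of Elav-ATMi for 104 members (50.1% of all transcripts), replicate 2 of Elav-GAL4 for 99 (50.1%) and replicate 1 of ElavC155-ATMi for 100 (52.6%). Replicate 2 of ATM8/+ lay above its mean for 93 members, against 48.7% of all transcripts, but its arrays enter the rule. On some arrays the shares lay close together: replicate 2 of ATM8 was above its mean for 52.3% of members and 53.1% of all transcripts, replicate 1 of Elav-ATMi for 41.6% and 40.6%, and replicate 4 of Elav-GAL4 for 49.7% and 52.4%. The median deviation of the members on any array was at most 0.14 in size on the log2 scale, and deviations of opposite sign cancel in that median. The part of these shifts in the difference between ATM8 and ATM8/+ was not tested.

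**Figure D5:**
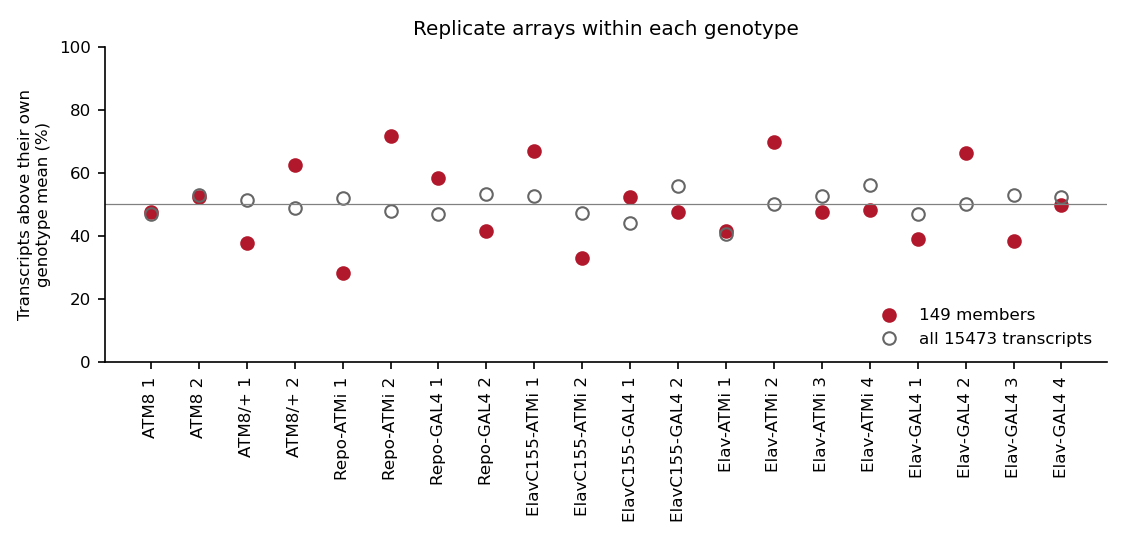
For each of the 20 arrays, the plot gives the percentage of transcripts above their own genotype mean, for the 149 members (filled) and all 15473 transcripts (open). With 2 arrays in a genotype the values of its arrays mirror each other. Members lie farthest from all transcripts on the Repo-ATMi arrays, at 71.8% on replicate 2.

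After removal of genotype means, the mean correlation between pairs of members was 0.11 over the 4 Repo arrays, 0.06 over the 4 ElavC155 arrays and 0.06 over the 8 Elav arrays. Over all transcripts it was 0.003, 0.01 and 0.009 on the same arrays. The arrays share their RNA, labelling and normalization across transcripts, so this is a description. The median SD between replicates was higher for members than for all transcripts in each of the 8 genotypes. It was 0.21 in ElavC155-ATMi, 0.20 in ATM8/+ and 0.19 in Repo-ATMi, against 0.09, 0.14 and 0.14 for all transcripts. In Repo-GAL4 it was 0.13 against 0.10, and in Elav-GAL4 0.27 against 0.21. The comparison was not matched for brightness, members were more often dim, and the arrays of all genotypes entered the rule, so this too is a description.

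Some members may be transcripts of the same gene. Identifiers within 2 numbers of another member's were held by 20 members, in 10 pairs. No member had the same values as another row of the table, the count being 0. Over the 12 ElavC155 and Elav arrays the levels of these pairs correlated with a median r of 0.44, from -0.14 to 0.93, and 2 of the 10 pairs were over 0.8. The table does not say which members share a gene or probes, so 149 transcripts may stand for fewer genes.

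In the RNA interference comparisons the members were held near 0 by the rule. Their median difference was -0.11 between Repo-ATMi and Repo-GAL4, 0.02 between ElavC155-ATMi and ElavC155-GAL4 and -0.06 between Elav-ATMi and Elav-GAL4. It was below 0 in all 3 comparisons for 28 members and above 0 in all 3 for 13. The members nearest to the edge of the window reached 0.4995 and 0.4876 in size, and the nearest transcripts left out by it 0.508 and 0.5081.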

How the data were processed

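Total RNA of fly heads was hybridised to 20 single-colour arrays (Cy3), labelled by NimbleGen, per the labels' protocols. The deposited log2 values are RMA levels made by the authors, per the submitters' processing notes. Not given in the sources used here are the probes per transcript, the annotation release and which arrays were normalized together. The log2 scale was read from the values. RMA levels carry no detection call. Precision is limited by the number of arrays. The authors' table held 15473 transcripts and 0 missing values.

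Members were found by the stated rule, which was chosen, like the contrasts and lists, with earlier results of these data known. A mean for each of the 8 genotypes was fitted over all 20 arrays in R 4.3.3, using lmFit and eBayes of limma 3.58.1 without a trend, two-sided. Benjamini-Hochberg adjustment ran over all transcripts, and the threshold was 0.05. The fit was tested on simulated data with independent noise on each array. Deviations shared between arrays were not simulated. Errors are SE from limma. The labels call the replicates biological without saying how they were raised, so the p-values reflect only how far these samples differ, which may be technical.

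Named transcripts were the 2 members with the most negative difference between ATM8 and ATM8/+, and the 2 highest and 2 lowest members past the threshold in the contrast of the ATM8 and Repo pairs and in that of the ElavC155 and Elav pairs. The ATM8 and Repo contrast had been planned as a test and is given as a description, since the ATM8 arrays that chose the members enter it. Gene lists and markers that had been written down were not used, since 0 members could be paired with a gene and few rows were matched. Same-numbered Elav-ATMi and Elav-GAL4 arrays deviated together from their genotype means (r from 0.12 to 0.24 over 4 pairs of arrays), and this pairing comes from the data, not the labels. With 2 arrays a genotype, r was 0.51 between the ElavC155 genotypes, 0.26 between ATM8 and ATM8/+ and -0.14 between the Repo genotypes. The main fit treats all arrays as independent. If the ElavC155 and Elav arrays are paired, the SE and p-values of their contrast may be too small. Alternatives were quantile normalization, a filter on dim transcripts, array weights, an intensity trend, fewer arrays and the replicate number as a block.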

Additional observations from a re-analysis of the deposited data

How the results depend on the processing

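The set itself depends on its limits and on single arrays. It had 29 members with a difference of at most -1, 73 with a window of 0.3 and 96 with the dimmest 25% of transcripts left out. With any 1 of the 20 arrays left out it had 117 to 322 members, of which 93 to 148 were among the 149. It was 322 without ATM8/+ replicate 1 (126 of the 149) and 264 without ATM8 replicate 2 (118 of the 149). After quantile normalization it had 193 members, 138 of them among the 149. The limma calls between ATM8 and ATM8/+ among the members were 14 in a fit of those 4 arrays alone, and 19 to 22 with any 1 of them left out (22 without ATM8/+ replicate 1, 19 without ATM8/+ replicate 2, 21 without either ATM8 replicate), against 43.

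The contrast of the ATM8 and Repo pairs called 57 to 68 members with any 1 of its 8 arrays left out (23 to 26 higher, 34 to 45 lower), and that of the ElavC155 and Elav pairs 61 to 79 (21 to 27 higher, 38 to 52 lower). With the dimmest 25% left out, fewer members (96) were tested. Between the ATM8 and Repo pairs 48 were called (13 higher). There 13.5% were higher and 36.5% lower, against 25.5% and 18.3% of all transcripts tested. Between the ElavC155 and Elav pairs 57 were called (13 higher), with 13.5% higher and 45.8% lower, against 18.5% and 23.3%. A replicate block in the fit gave counts of 73 and 69, with 69 of the 74 and 65 of the 78 calls kept, and 48 calls between ATM8 and ATM8/+. That block gave each replicate number an effect shared by all genotypes. Same-numbered Elav and ElavC155 arrays did not deviate alike (r from -0.21 to 0.12). The block therefore could not account for a pairing within the ElavC155 genotypes alone. Same-numbered Repo arrays deviated in opposite directions, and with the Repo-GAL4 numbers crossed, an alternative chosen after seeing the data, the count was 73. The 4 named differences between the ElavC155 and Elav pairs kept their direction and passed the threshold in all 70 values under the alternatives, at limma adjusted p of 7.5e-05 or lower.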
